A study of Mus musculus with 8 samples.

Results

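The interleukin 1 family was examined in RNA-seq libraries of sorted mouse eosinophils, from the bone marrow and the small intestine. The 10 genes described here, Il1a, Il1b, Il1rn, Il1r1, Il1r2, Il1rap, Il1rl1, Il18, Il18r1 and Il33, were taken by symbol from the 38392 genes of the deposited table, and all 10 were found. Eosinophils, granulocytes that mature in the bone marrow and take up residence in the intestinal wall, were compared between their site of production and the tissue. The mice of all 8 libraries were female, wildtype and of strain C57/BL6, with no treatment named, and 4 libraries came from each tissue. Bone marrow cells were sorted as CD11b+Ly6G-Ly6C-SiglecF+SSChi after flushing of the bone. Intestinal cells were sorted as CD11b+MHC-II-SiglecF+SSChi after the epithelium had been stripped, the tissue digested with warm collagenase and DNase, and the cells enriched on anti-CD11b beads. Tissue and handling therefore changed together and cannot be told apart. The column names give the tissue of each library but no single sample, so a library is called by its column: the bone marrow libraries are BM_1, BM_3, BM_4 and BM_5, and the intestinal ones SI_6, SI_7, SI_10 and SI_11. Values below follow that order within each tissue.

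Cytokines of this family act through paired receptor chains that share an intracellular signalling domain with the Toll-like receptors. IL-1α, encoded by Il1a, and IL-1β, encoded by Il1b, bind the receptor encoded by Il1r1, which then recruits the shared accessory chain encoded by Il1rap and signals through MyD88 to NF-κB. The antagonist encoded by Il1rn occupies Il1r1 without signalling, and the decoy receptor encoded by Il1r2 binds ligand but lacks the signalling domain. IL-33 acts through ST2, the product of Il1rl1, again with Il1rap, while IL-18 acts through Il18r1 and Il18rap. IL-33 is known as an activator of eosinophils and of type 2 immunity at mucosal surfaces.

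In the intestinal libraries, transcripts of Il1a, Il1b, Il1rn and the decoy receptor Il1r2 were far more abundant than in the libraries labelled bone marrow eosinophils, by 1893-fold, 1603-fold, 327-fold and 80.9-fold in the mean normalised count (recovered reads divided by the size factor of the library, n = 4 per tissue). Il1rl1 and Il33 were higher in the intestine by smaller margins, Il18r1 was lower, and Il1r1, Il1rap and Il18 did not pass the test. Together Il1a, Il1b and Il1rn took 0.686% ± 0.119 (SD, n = 4) of all reads in genes in the small intestine and 0.00103% ± 0.000117 in bone marrow. Markers of the bone marrow libraries went against their label, so each comparison is one of libraries as labelled. In them 10 genes of neutrophil precursors took 2.78% to 3.21% of reads and all 11 eosinophil markers 0.111% to 0.152%. Most of the latter share was Itgam, the gene of the CD11b used in both sorts. Its mean normalised count there was 14137, and the next of the 11 was Prg2 at 1831. RNA was measured in bulk, so fewer cells carrying a transcript and less of it per cell cannot be told apart.

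The sequence upstream of the 4 genes with the largest rises and of Il18r1, the member that fell, is shown because these genes lie in 3 places on chromosomes 1 and 2 and moved in opposite directions. RefSeq start sites of build GRCm38.p6 gave 17 windows of 300 bases, from 250 bases before to 50 bases after a start, for all 10 members. The 250 bases before the start are printed for chr2:129309973-129310222 (minus strand), chr2:129371140-129371389 (minus strand), chr2:24336610-24336859, chr1:40085843-40086092 and chr1:40465302-40465551 (plus strand), the last 3 being the first of 3 windows of Il1rn, the single window of Il1r2 and the first of 3 windows of Il18r1. Capitals mark matches on either strand to 6 motifs, and matches that overlap run together. The letters searched were TGANTCA for the Fos and Jun proteins of AP-1, GGANTTTCC for NF-κB, TTNNGNAA for the C/EBP family, GAGGAA for the myeloid regulator PU.1, GCGTG as the core of the site bound by the aryl hydrocarbon receptor, and TATAAA as the box near which transcription starts.
Il1a: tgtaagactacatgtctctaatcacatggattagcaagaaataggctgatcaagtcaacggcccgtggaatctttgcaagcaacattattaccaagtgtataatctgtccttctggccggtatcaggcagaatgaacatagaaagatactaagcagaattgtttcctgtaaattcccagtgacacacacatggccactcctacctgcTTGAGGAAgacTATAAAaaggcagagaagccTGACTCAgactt
Il1b: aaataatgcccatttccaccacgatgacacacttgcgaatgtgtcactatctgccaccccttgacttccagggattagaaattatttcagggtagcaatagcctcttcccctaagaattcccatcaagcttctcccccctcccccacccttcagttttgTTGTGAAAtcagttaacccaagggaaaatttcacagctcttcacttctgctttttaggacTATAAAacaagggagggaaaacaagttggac
Il1rn: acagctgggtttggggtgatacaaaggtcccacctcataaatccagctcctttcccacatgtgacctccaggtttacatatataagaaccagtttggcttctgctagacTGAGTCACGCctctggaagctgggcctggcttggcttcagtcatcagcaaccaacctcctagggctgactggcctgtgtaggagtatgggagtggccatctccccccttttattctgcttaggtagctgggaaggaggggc
Il1r2: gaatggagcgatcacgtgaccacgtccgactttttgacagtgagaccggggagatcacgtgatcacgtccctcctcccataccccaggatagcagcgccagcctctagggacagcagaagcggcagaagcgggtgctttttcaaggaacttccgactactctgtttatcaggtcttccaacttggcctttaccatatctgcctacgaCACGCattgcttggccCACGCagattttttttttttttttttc
Il18r1: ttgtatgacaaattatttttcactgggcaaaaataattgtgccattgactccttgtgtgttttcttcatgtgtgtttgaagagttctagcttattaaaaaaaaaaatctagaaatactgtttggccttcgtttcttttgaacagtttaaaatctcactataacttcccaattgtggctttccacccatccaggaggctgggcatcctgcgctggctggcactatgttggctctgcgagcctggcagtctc

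The window of Il1a held 4 of the 6 motifs, with the TATA box at 32 to 27 bases and AP-1 at 12 to 6 bases before the start, and a C/EBP match that overlaps the PU.1 match between 43 and 36 bases before it. The Il1b window held a TATA box at 31 to 26 bases and a C/EBP match at 91 to 84 bases before the start. In the Il1rn window an AP-1 match overlapped the core of the aryl hydrocarbon receptor site, and the Il1r2 window held that core 3 times, 2 of them upstream, and no other motif searched. The first Il18r1 window held none of the 6. Over the 17 windows of the members, AP-1 was found in 2, NF-κB in 1 (a window of Il1rl1), C/EBP in 10, PU.1 in 4, the aryl hydrocarbon receptor core in 6 and the TATA box in 6. The shares of all 32851 windows with these motifs were 7.81%, 1.25%, 40.7%, 28.3%, 32.4% and 13.6%, in the same order. These are matches of letters, and windows of 1 gene can overlap.

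The libraries held 11508002 to 21289164 reads in genes, and all 10 members had a mean of at least 10 reads. Of the 11 eosinophil markers examined, 5 were higher and 5 lower in the small intestine. Siglecf rose from a mean normalised count of 580 to 3076 and Ccr3 from 70.9 to 16351, whereas the granule genes Epx and Prg2 fell from 350 to 20.6 and from 1831 to 147. The 11 markers together took 0.418% to 0.574% of intestinal reads. Itgam was again the most abundant of them, at a mean of 42332, followed by Alox15 at 19775. Transcripts of genes listed as markers of other cell types were present in the libraries of both tissues. Genes of neutrophil precursors (10 of 10 lower in the small intestine, led by Mpo, Elane and Ngp) took 0.00320% to 0.00361% of intestinal reads against the bone marrow share given above, with Mpo at a mean of 149860 in bone marrow, and Ly6c2, one of the genes behind the Ly6C epitope used to exclude cells, had a mean of 8268 in bone marrow and 16.7 in the small intestine. In the intestinal libraries, all 10 epithelial markers were higher, with 0.0364% to 0.244% of reads and the highest share in SI_6, against 0.00139% to 0.00165% in bone marrow. Markers of fibroblasts (7 of 8), endothelium (7 of 8), macrophages, monocytes and dendritic cells (11 of 14 higher, 1 lower), mast cells and basophils (3 higher and 5 lower of 13) and T and innate lymphoid cells (3 higher and 1 lower of 11) included called genes as well, and of 10 genes of mature neutrophils 4 rose and 4 fell. Among the mature neutrophil genes, Retnlg rose from a mean of 421 to 45675 and Mmp9 from 50.7 to 7336. S100a8 fell from 65630 to 130 and S100a9 from 96527 to 276. That list took 0.909% to 1.56% of bone marrow reads and 0.295% to 0.389% of intestinal reads. In the small intestine, Itgax (mean 14221) and Adgre1 (13672) led the macrophage, monocyte and dendritic cell list, with Cd74 next at 3141. H2-Aa and H2-Ab1 are genes of the MHC-II used to exclude cells in the intestinal sort. Their means rose from 122 to 1677 and from 143 to 1093, so intestinal markers also went against the sort. Pecam1 (8162) led the endothelial list, with Vwf next at 117. Which cells carried these transcripts was not tested. The fibroblast count was 4 without SI_6, without SI_7 or under quantile normalization. Of the T and innate lymphoid markers 1 was higher without any of BM_1, BM_4, SI_7 and SI_10 and under quantile normalization. All 15 genes known to respond to tissue dissociation, such as Fos and Dusp1, were higher in the intestine, at 0.618% to 0.791% of reads against 0.00944% to 0.0114%. The part of other cells and of dissociation in the results given here was not tested.

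A difference is the intestinal minus the bone marrow mean of the deposited log2-like values, on which 1 unit is nearly a doubling where a gene has many reads and less than that where it has few. They were tested with limma over all 38392 genes, and a gene was called at a 2-sided Benjamini-Hochberg adjusted p under 0.05. Of the 10 members 7 were called, where 34.9% of all genes were. There were 6 members higher in the small intestine, against 22.0% of all genes, and 1 lower, against 12.9%. In 7 members the 4 libraries of one tissue did not overlap with those of the other, as in 34.3% of all genes. Because all 10 members had a mean of at least 10 reads, the 16215 genes with that many are the closer background. In a fit to those genes 72.9% were called, 39.2% higher and 33.7% lower, and the same count of 6 members higher and 1 lower was obtained. Il33 (0 to 8 reads in bone marrow, 8 to 27 in the small intestine) and Il18 (3 to 9 and 4 to 48) passed this filter only through intestinal reads. For Il33, one of the 6 higher, passing it was therefore not independent of the tissue difference. The number of members called was near the share of genes called in that fit, and 4 of them ranked 6, 7, 65 and 245 among all genes by absolute difference. Their median difference was 3.14, against 0.37 for all genes and 0.12 for those with a mean of at least 10 reads.

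**Figure D1:**
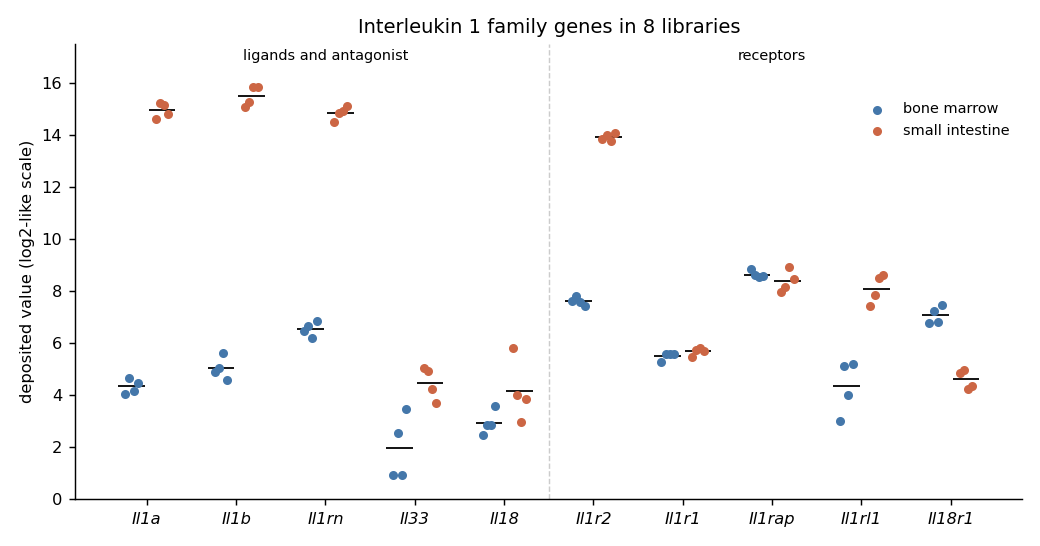
Deposited value (log2-like scale, vertical axis) of each member in the 4 bone marrow (blue) and 4 small intestine (orange) libraries; each point is a library and each bar a tissue mean. Intestinal points of Il1a, Il1b, Il1rn and Il1r2 lie between 13.78 and 15.86, all of their bone marrow points between 4.05 and 7.82, and the tissues overlap for Il18, Il1r1 and Il1rap.

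Among the agonists, Il1a (ENSMUSG00000027399, chr2:129299610-129309972, minus strand) had normalised counts of 13.0, 21.5, 14.4 and 18.6 in BM_1, BM_3, BM_4 and BM_5 and 25248, 38028, 36075 and 28381 in SI_6, SI_7, SI_10 and SI_11. Every intestinal library lay far above every bone marrow library, and only 15 to 33 reads supported each bone marrow value. The difference was 10.60 ± 0.23 (SE, adjusted p = 1.06e-07), the sixth largest in absolute size of all genes. Il1b (ENSMUSG00000027398, chr2:129364570-129371139, minus strand), whose product is secreted after cleavage, had 26.1, 28.7, 45.0 and 20.5 in bone marrow and 34836, 39783, 58573 and 59503 in the small intestine. SI_10 and SI_11 stood above the other two intestinal libraries for Il1b, an order that Il1a did not share. The difference of Il1b was 10.49 ± 0.29 (adjusted p = 2.43e-07), which ranked 7. Il1a and Il1b lie within 71.5 kb of each other. Of the genes on either side of the pair, Ckap2l was lower in the small intestine by 0.94 ± 0.24 (adjusted p = 0.0153) and F830045P16Rik differed by 2.58 ± 0.66 (adjusted p = 0.0153) on 0 to 16 reads a library, with overlapping tissues and a call lost without any of 5 single libraries.

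Genes on the opposite strand overlap both agonists. Gm14023 shares 222 exon bases with Il1a and differed by 9.66 ± 0.36, with 2 to 14 reads in bone marrow and 5546 to 9480 in the small intestine. Il1bos shares 25 exon bases with Il1b and differed by 7.22 ± 0.57, with 0 to 13 and 510 to 678 reads. The strand setting of the counting is not given in the sources used here, so reads of these partners cannot be told apart from reads of Il1a and Il1b in the shared bases. Il1b reads outnumbered those of Il1bos in every library, and those of Il1a outnumbered those of Gm14023.

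The antagonist Il1rn (ENSMUSG00000026981, chr2:24336853-24351494, plus strand) had normalised counts of 85.0, 97.2, 68.9 and 110 in bone marrow and 23177, 29078, 30684 and 35075 in the small intestine. The tissues were again fully separated. The difference was 8.30 ± 0.22 (adjusted p = 2.23e-07, rank 65). Secreted and intracellular forms of the antagonist arise from different first exons, which counts per gene do not separate. In the cluster of 198.3 kb that holds Il1rn, the IL-36 genes are listed under their older symbols. Il1f9, the gene of IL-36γ, fell from 159 ± 23.7 to 10.3 ± 3.24 (SD), a difference of -3.58 ± 0.24 (SE, adjusted p = 1.21e-05). Il1f5, the gene of the IL-36 receptor antagonist, had 4.60 ± 7.57 and 12.0 ± 7.17 and was not called (difference 1.65 ± 0.76, adjusted p = 0.135). Il1f6, Il1f8 and Il1f10 had at most 6 reads in any library. Of the genes next to the cluster, Psd4 was higher by 1.02 ± 0.19 (adjusted p = 0.00305), a call that median-centred libraries end, and Tbpl2 had at most 4 reads.

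The IL-1 receptor antagonist and agonists did not keep the same proportion. Per kilobase of the longest transcript, Il1rn over the sum of Il1a and Il1b was 1.29, 1.19, 0.667 and 1.75 in BM_1, BM_3, BM_4 and BM_5 and 0.236, 0.234, 0.195 and 0.236 in SI_6, SI_7, SI_10 and SI_11. The means were 1.22 ± 0.446 and 0.225 ± 0.0199 (SD, n = 4), without overlap. Il1a over Il1b was 0.219 to 0.625 in bone marrow and 0.328 to 0.657 in the small intestine, and the ranges overlapped. With the union of all exons as gene length the antagonist ratio was 0.706 in bone marrow and 0.129 in the small intestine. Ratios are given as a description, with no test.

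**Figure D2:**
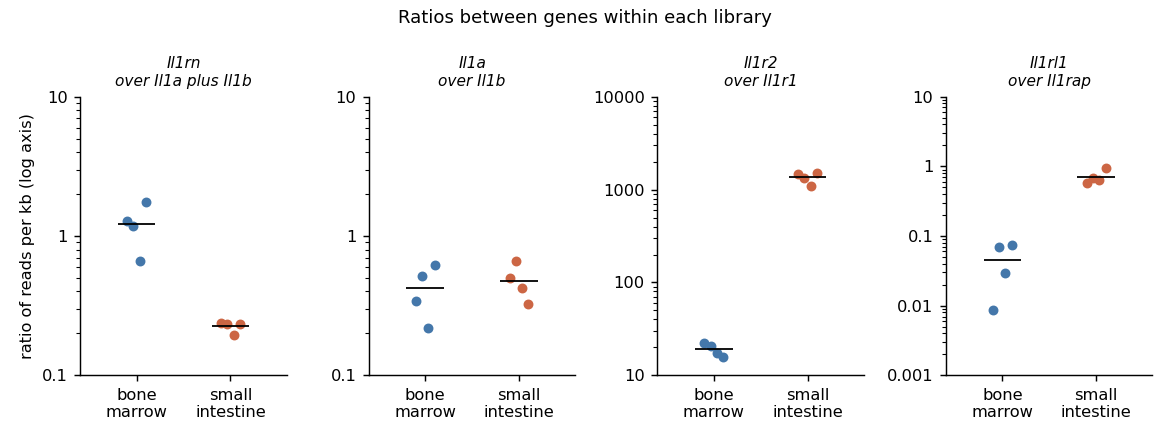
Ratios between members within a library (vertical axes, logarithmic, ratio of reads per kb of the longest transcript) for 4 pairs of transcripts in bone marrow (blue) and small intestine (orange); points are libraries and bars are means. Il1rn over agonists is lower in the small intestine, Il1a over Il1b overlaps between tissues, and Il1r2 over Il1r1 and Il1rl1 over Il1rap are higher in every intestinal library.

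Of the other ligands, Il33 (ENSMUSG00000024810, chr19:29925114-29960718) had 0, 4, 0 and 8 reads in BM_1, BM_3, BM_4 and BM_5 and 27, 19, 14 and 8 reads in SI_6, SI_7, SI_10 and SI_11. As normalised counts the highest bone marrow value was 7.44 and the lowest intestinal value 9.48, so the tissues were separated by a narrow gap. The difference was 2.52 ± 0.61 (adjusted p = 0.0120), on a scale that understates changes at such low counts. Il33 is known as a product of epithelial, endothelial and stromal cells. Its intestinal order, highest in SI_6 and lowest in SI_11, was also that of the fibroblast markers, which took 0.00509%, 0.00330%, 0.00167% and 0.00112% of reads in SI_6, SI_7, SI_10 and SI_11, and of the epithelial markers, with 0.244%, 0.107%, 0.0366% and 0.0364%. Their part in the Il33 value was not tested. Without SI_6 the difference was 2.32 (adjusted p = 0.0474).

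Il18 (ENSMUSG00000039217, chr9:50554827-50581840) had 2.30, 3.91, 3.83 and 8.37 normalised counts in bone marrow and 52.4, 12.5, 4.38 and 10.7 in the small intestine. A single library, SI_6 with 48 reads, carried most of the intestinal mean, and the other 3 held 4 to 9 reads. The difference of 1.22 ± 0.57 was not called (95% interval -0.08 to 2.52, adjusted p = 0.139), and without SI_6 it was 0.67 (adjusted p = 0.218). SI_6 was also the library with the highest share of epithelial markers, a cell type that is known to express Il18. That part was not tested. The neighbour Bco2 overlaps Il18 on the other strand without shared exons and was also highest in SI_6, with 94 reads against 20 to 31.

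Among the receptors, the decoy Il1r2 (ENSMUSG00000026073, chr1:40074079-40125231) had normalised counts of 194, 222, 186 and 168 in bone marrow and 14631, 16270, 14082 and 17279 in the small intestine. Its libraries lay close together within each tissue, with an SD of 22.3 around a bone marrow mean of 192 and of 1473 around an intestinal mean of 15566. The difference was 6.31 ± 0.18 (adjusted p = 2.61e-07, rank 245). The single RefSeq start of Il1r2 lies inside the GENCODE gene, downstream of its first annotated base. Gm37347, of unknown product, is annotated on the same strand within Il1r2 with no shared exon bases. It rose from 165 ± 36.5 to 23713 ± 2953 (difference 7.15 ± 0.23), an intestinal mean above that of Il1r2. Counts per gene cannot tell its reads apart from Il1r2 reads that fall outside the annotated exons. Gm16894 on the opposite strand differed by 4.75 ± 0.24.

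The signalling receptor Il1r1 (ENSMUSG00000026072, chr1:40225080-40317257) did not follow. Its normalised counts were 35.2, 43.7, 44.0 and 43.7 in bone marrow and 40.4, 49.9, 52.5 and 47.4 in the small intestine, from 36 to 67 reads a library. The tissues overlapped, and the difference was 0.18 ± 0.18 (95% interval -0.24 to 0.59, adjusted p = 0.476), which turned to -0.41 under quantile normalization and -0.72 with median-centred libraries. Per kilobase, Il1r2 over Il1r1 was 15.8 to 22.6 in bone marrow and 1100 to 1495 in the small intestine.

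The shared accessory chain Il1rap (ENSMUSG00000022514, chr16:26581704-26730117) had 454, 383, 365 and 374 normalised counts in bone marrow and 248, 282, 477 and 345 in the small intestine. SI_10 exceeded every bone marrow library, and SI_6, SI_7 and SI_11 lay below all of them. The difference of -0.26 ± 0.24 was not called (95% interval -0.81 to 0.30, adjusted p = 0.464), but became -1.16 (adjusted p = 0.0388) with median-centred libraries. Full-length and soluble forms of the chain were counted together. Gm20319, which shares 552 exon bases with Il1rap on the other strand, had at most 4 reads.

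Il1rl1 (ENSMUSG00000026069, chr1:40429570-40465415), the receptor of IL-33, had 4.60, 31.3, 12.4 and 32.5 normalised counts in bone marrow and 168, 227, 354 and 385 in the small intestine. The bone marrow libraries were spread widely, on 6 to 48 reads, and still lay below every intestinal library. The difference was 3.77 ± 0.52 (adjusted p = 0.000666), equal to 14.0-fold in the means. Membrane and soluble ST2 come from the same gene and were not separated. Per kilobase, Il1rl1 over Il1rap was 0.0454 ± 0.0318 in bone marrow and 0.713 ± 0.166 in the small intestine (SD, n = 4), with no overlap and no test. This ratio depends on the gene length, and with the union of all exons it was 0.0877 in bone marrow and 1.38 in the small intestine, above 1 in every intestinal library (1.12 to 1.84).

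Il18r1 (ENSMUSG00000026070, chr1:40465552-40500854) was the member that fell, from 105, 146, 107 and 174 normalised counts in bone marrow to 25.1, 27.7, 15.3 and 16.6 in the small intestine. All 4 intestinal libraries were below all 4 bone marrow libraries. The difference was -2.46 ± 0.26 (adjusted p = 0.000162), a 6.28-fold lower mean. Its co-receptor Il18rap fell in parallel, from 1753 ± 109 to 327 ± 149, a difference of -2.53 ± 0.33 (adjusted p = 0.000509). The share of reads from neutrophil precursor markers was higher in bone marrow too, and its part in these falls was not tested.

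**Figure D3:**
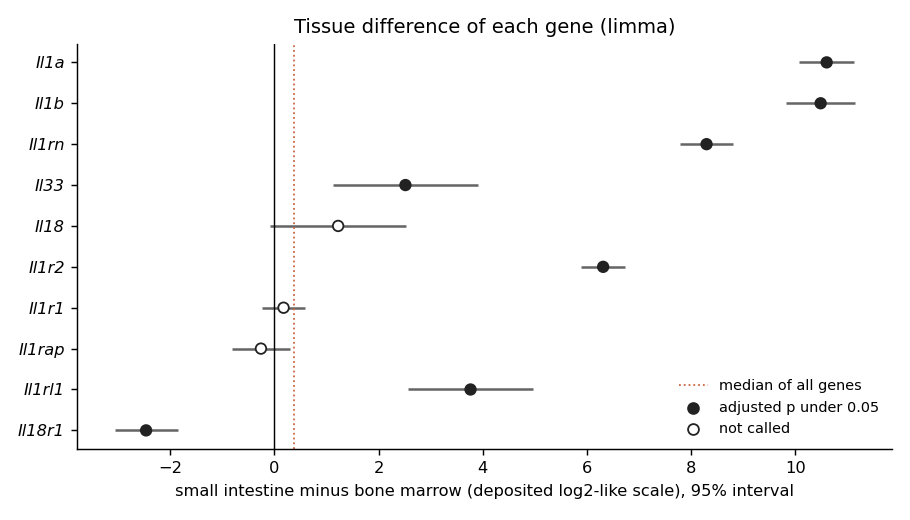
Difference of each member, intestinal minus bone marrow mean in deposited log2-like units (horizontal axis), from limma with its 95% interval; filled points are called at an adjusted p under 0.05, and the dotted line is the median of all genes, 0.37. Il1a and Il1b lie beyond 10, Il1rn at 8.30 and Il1r2 at 6.31, the intervals of Il18, Il1r1 and Il1rap include 0, and Il18r1 lies at -2.46.

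The receptor genes Il1r2, Il1r1, Il1rl2, Il1rl1, Il18r1 and Il18rap follow each other on the plus strand of chromosome 1 within 477.6 kb, and neighbours moved in opposite directions. Il1r2 was higher, Il1r1 was not called, Il1rl2, the IL-36 receptor chain, was lower by 2.52 ± 0.22 (adjusted p = 4.82e-05, from 538 ± 78.2 to 91.3 ± 18.1 normalised counts), Il1rl1 was higher, and Il18r1 and Il18rap were lower. Il1rl1 and Il18r1, whose annotated ends are less than 1 kb apart, thus changed in opposite directions. The genes just outside were higher in the small intestine, Map4k4 by 2.99 ± 0.18 (adjusted p = 7.45e-06) and Slc9a4 by 3.16 ± 0.62 (adjusted p = 0.00429). Slc9a4 had only 0 to 11 reads a library in bone marrow and 26 to 32 in the small intestine.

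**Figure D4:**
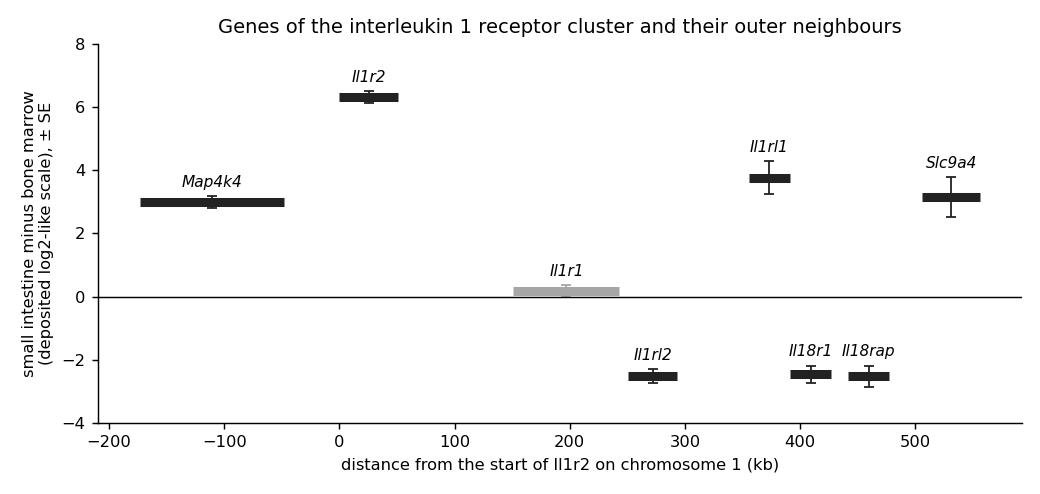
Tissue difference (vertical axis, deposited log2-like scale, with SE) of the 6 receptor genes on chromosome 1 and their outer neighbours by distance from the start of Il1r2 (horizontal axis, kb); each bar spans a gene, and grey marks the gene that was not called. Values run from 6.31 for Il1r2 to -2.53 for Il18rap, with Il1rl2 at -2.52, Il1rl1 at 3.77 and Il18r1 at -2.46.

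With reads divided by the length of the longest transcript in kilobases and by the library total (reads per kb, scaled to a common library size), the intestinal order of levels was Il1b (2220 ± 565, SD, n = 4), Il1a (1016 ± 216), Il1rn (721 ± 99.1), Il1r2 (685 ± 32.6), Il1rap (4.70 ± 1.53), Il1rl1 (3.34 ± 1.15), Il18 (1.43 ± 1.60), Il1r1 (0.513 ± 0.0657), Il33 (0.502 ± 0.241) and Il18r1 (0.320 ± 0.0968). Il1rn and Il1r2 overlapped, as did each neighbour from Il1rap to Il18r1, while Il1b, Il1a and Il1rn were separated from one another. Among the 20623 protein coding genes, Il1b ranked 3, Il1a 15, Il1rn 23 and Il1r2 28 by this level. In bone marrow the order was Il1r2 (10.2 ± 0.813), Il1rap (6.53 ± 0.481), Il1rn (2.66 ± 0.552), Il18r1 (2.41 ± 0.662), Il1b (1.67 ± 0.626), Il1a (0.642 ± 0.147), Il1r1 (0.539 ± 0.0734), Il18 (0.397 ± 0.242), Il1rl1 (0.289 ± 0.199) and Il33 (0.0761 ± 0.109). There the neighbours Il1rn, Il18r1 and Il1b overlapped in turn, as did all those from Il1a to Il33.

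Both orders depend on the gene length used. With the union of all exons, Il1rn came below Il1r2 in the small intestine (333 ± 45.7 against 510 ± 24.2) and Il1rap below Il1rl1 (1.87 ± 0.611 against 2.56 ± 0.888). Il1b (1578 ± 402) and Il1a (1016 ± 216) stayed first and second, and the ranks among protein coding genes became 6 for Il1b, 13 for Il1a, 37 for Il1r2 and 55 for Il1rn. In bone marrow Il1r2 (7.55 ± 0.605) and Il1rap (2.60 ± 0.191) stayed first and second. Il1rn (1.23 ± 0.255) then came below Il18r1 (2.08 ± 0.571) and close to Il1b (1.19 ± 0.445). The order of the other members was the same in each tissue.

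The genes with the most similar profile were searched by the root mean square difference of the 8 centred deposited values among 13345 genes. Near to Il1a was Adamdec1 (0.321). Nearest to Il1b were the prostaglandin synthase gene Ptgs2 (0.265) and the chemokine gene Cxcl3 (0.318), and nearest to Il1rn were Dusp16 (0.159) and Slc7a11 (0.165). Il1r2 was nearest to Tmcc3 (0.0991) and to Adgre1, the gene of F4/80 (0.116). These likenesses rest mainly on the step between tissues, since the members themselves differ by 6.31 to 10.60 on this scale. For the lower members the nearest were Actr5 (0.0855) and Zfp53 (0.0874) for Il1r1, Zfp866 (0.0906) and Rab32 (0.137) for Il1rap, Col5a1 (0.265) and Crybg2 (0.322) for Il1rl1, Dcbld1 (0.222) and Zfp946 (0.278) for Il18, Zfp35 (0.222) and Ak6 (0.227) for Il18r1, and Ntn4 (0.229) and Cap2 (0.311) for Il33.

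The remaining genes of the family were 11, of which 2 were higher, 4 lower and 5 not called, with a median difference of -0.09. Of all genes 22.0% were higher and 12.9% lower. The read filter kept 5 of the 11, with 0 higher and 4 lower, against 39.2% and 33.7% of the genes it kept. The 4 that fell were Il1f9, Il1rl2, Il18rap and Sigirr, an inhibitory receptor that differed by -1.27 ± 0.39 (adjusted p = 0.0338) with overlapping tissues and lost its call without any of 6 single libraries. Il18bp, the soluble inhibitor of IL-18, had 251 ± 35.8 in bone marrow and 236 ± 27.8 in the small intestine and was not called. The 2 that were higher, Il1f10 and Il1rapl1, had at most 9 reads in any library and adjusted p-values of 0.0497 and 0.0499. Neither was called with an intensity trend, quantile normalization or median-centred libraries, or without any of 6 single libraries.

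Inflammasomes and proteases that process IL-1 cytokines were divided. Of 13 genes, 5 were higher and none lower at the threshold, with a median of 0.12. All 13 averaged at least 10 reads, and when only such genes were fitted 6 were higher and 1 lower, against the same 39.2% and 33.7%. Nlrp1b, an inflammasome sensor, differed by 7.17 ± 0.48 (5.86 ± 6.40 to 1072 ± 131 normalised counts), Capn2, a calpain subunit, by 4.41 ± 0.24, the sensor Nlrp3 by 3.83 ± 0.41 (5.97 ± 4.87 to 116 ± 27.1), S100a10 by 3.03 ± 0.30 and the pore-forming Gsdmd by 0.79 ± 0.20 (adjusted p = 0.0154). Casp1, the protease that cleaves pro-IL-1β, had 498 ± 244 in bone marrow and 416 ± 110 in the small intestine and was not called (difference -0.09 ± 0.50, adjusted p = 0.908). The adaptor Pycard (-0.58 ± 0.49), Nlrc4 (-1.09 ± 0.42), Capn1 (-0.30 ± 0.22), Aim2 (0.39 ± 0.19), Casp4 (0.12 ± 0.19), Casp8 (0.04 ± 0.17) and Mefv (0.03 ± 0.22) were not called either. With median-centred libraries, 4 of the 13 were higher and 3 lower, and Gsdmd was no longer called.

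Of 15 genes of proximal signalling, 7 were higher and none lower, with a median of 0.57. All 15 had a mean of at least 10 reads, and in the fit to genes with that many 8 were higher and 2 lower, where 39.2% and 33.7% of genes were, so the share called was near the background. The kinase gene Irak2 differed most, by 3.59 ± 0.23 (307 ± 61.9 to 3727 ± 634), followed by Ikbkb (1.96 ± 0.18), Tab3 (1.50 ± 0.18), Chuk (0.80 ± 0.19), Peli1 (0.74 ± 0.19), Tab2 (0.72 ± 0.17) and the adaptor Myd88 (0.72 ± 0.19, adjusted p = 0.0179). The values of Irak4 (0.57 ± 0.20), Irak3 (0.42 ± 0.21), Tollip (0.24 ± 0.19), Traf6 (0.17 ± 0.18), Map3k7 (0.10 ± 0.17), Ikbkg (-0.07 ± 0.19), Irak1 (-0.43 ± 0.17) and Tab1 (-0.46 ± 0.17) were not called. With median-centred libraries only Irak2 remained higher among the 15, and 2 genes were lower.

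Genes known to be induced by interleukin 1 and by other NF-κB stimuli included 10 of 12 that were higher and none lower. Of all genes 22.0% were higher. The list median was 4.36, against 0.37 for all genes. In the fit to genes averaging at least 10 reads over all 8 libraries, 9 of the 12 remained and all 9 were higher, against 39.2%. That filter left out Ccl2, Csf3 and Saa3. Cxcl1 (0 to 1 reads in bone marrow, 34 to 61 in the small intestine) and Il6 (0 to 3 and 381 to 1493) passed it through their intestinal reads. The share that was higher was thus partly set by the filter. The count of 10 fell to 9 under quantile normalization and without any of BM_1, BM_3, BM_4, SI_6, SI_7 and SI_10. With median-centred libraries 10 were higher and 1 lower. The 12 genes took 0.0152% to 0.0189% of reads in bone marrow and 0.972% to 1.52% in the small intestine. The chemokine gene Cxcl2 rose from 31.3 ± 6.41 to 68026 ± 8261 normalised counts (difference 10.94 ± 0.21). Ptgs2 rose from 22.2 ± 3.75 to 45925 ± 11724 (10.77 ± 0.24) and Il6 from 1.53 ± 1.04 to 1007 ± 576 (7.78 ± 0.51). The NF-κB regulators Tnfaip3 and Nfkbiz rose from 270 ± 62.9 to 49136 ± 10564 (7.49 ± 0.25) and from 157 ± 21.9 to 18460 ± 4010 (6.82 ± 0.23). Ccl2, one of the 10, overlapped between tissues, at 0 to 10 reads in bone marrow and 8 to 26 in the small intestine. Its limma adjusted p was 0.0242, and up to 0.0857 with 1 library left out. Csf3 and Saa3 had at most 10 reads and were not called. Several of these genes also respond to tissue handling, and the share of reads from the 15 dissociation genes moved in the same libraries, as given above.

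**Figure D5:**
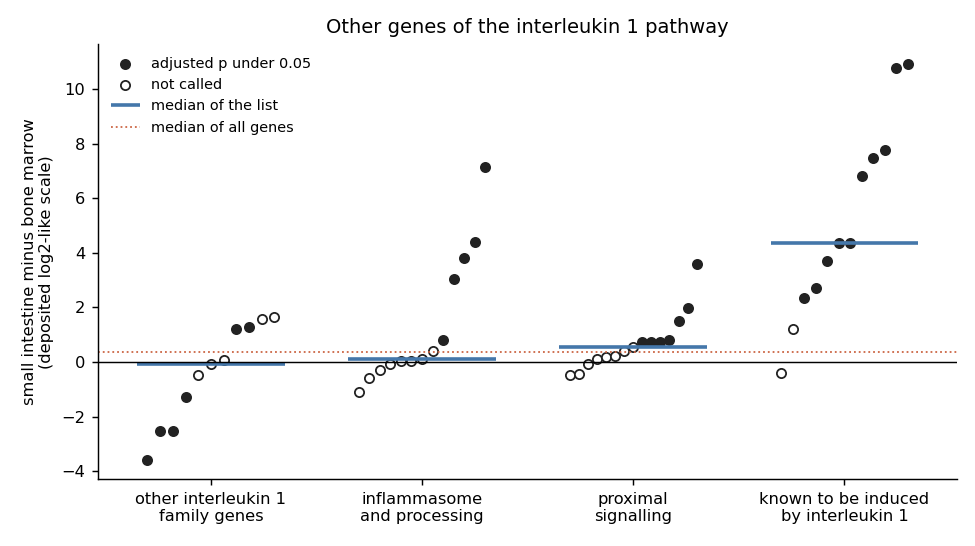
Tissue difference (vertical axis, deposited log2-like scale) of each gene in 4 lists around the interleukin 1 pathway; filled points are called, open points are not, blue bars are list medians and the dotted line is the median of all genes, 0.37. Genes known to be induced by interleukin 1 have a median of 4.36, and the other 3 lists have medians from -0.09 to 0.57.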

How the data were processed

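RNA of sorted eosinophils was amplified to cDNA and sequenced from a single end, per the labels only where RNA quality was sufficient. The authors counted reads per gene on GRCm38 with a public pipeline and deposited variance-stabilised values of DESeq2, which are on a log2 scale. The sources used here give neither aligner nor strand, nor how reads with several matches were counted. The transformation was inverted from its lowest value, 0.92971568, and gave whole reads within 0.05 for 100% of genes in each library, with size factors of 0.721 to 1.53. Totals of 11508002 to 21289164 reads leave 22177 genes with fewer than 10 reads on average, where precision is lowest. All 38392 identifiers were found in GENCODE M21 annotation of the same build, which gave positions and lengths.

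The tissues were compared by limma 3.58.1 (R 4.3.3) on the deposited values, unfiltered, without covariates and with a constant prior, and Benjamini-Hochberg adjustment over all genes. limma stood in for the count model of the authors because the test was made on the deposited values, whose unit is log2-like. The count model was not refitted to the recovered reads, on which limma voom was run as an alternative. The step was tested on simulated data with few changed genes, where false calls among genes with low counts exceeded the nominal share, and were near it in a fit to genes averaging at least 10 reads. Alternatives were an intensity trend, limma voom on recovered reads, quantile normalization, median-centred libraries, a filter that kept genes averaging at least 10 reads, log2 of normalised counts plus 1, each library left out, and exon unions as gene lengths. Labels list separate samples, and p-values measure the spread between them. The closest pair of libraries differed by more than counting noise, so each was counted. Named genes were the members, list genes averaging at least 10 reads in a tissue, the most abundant and extreme genes of other lists, neighbours in the genome and nearest profiles, of which 1 is not reported here; other genes were chosen after their values were seen. Members and lists were chosen with earlier results of these data known. Python 3.11.15, pandas 2.3.3, numpy 2.4.6 and matplotlib 3.10.9 served for the rest.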

Additional observations from a re-analysis of the deposited data

Results flagged for a closer look

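A library was marked where the distance to the closest library of its tissue took up more of the tissue's whole range than Dixon's 95% limit for 4 values allows. This was so in 8 of 124 groups of 4 libraries, and chance alone marks about 1 in 20.

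Among the members, Il1r1 in bone marrow was lowest in BM_1 (35.2 normalised counts against 43.7 to 44.0), where the gap was 0.966 of the range. Il1rn over the sum of Il1a and Il1b in the small intestine was lowest in SI_10 (0.195 against 0.234 to 0.236), with a gap of 0.963 of the range.

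The remaining 6 concerned genes of the pathway. In bone marrow, Casp1 (0.861) and Capn2 (0.892) stood apart in BM_4, and Pycard (0.843) and Capn1 (0.854) in BM_5. In the small intestine, Tollip (0.839) and the share of reads from the 15 proximal signalling genes (0.882, 0.144% in SI_6 against 0.166% to 0.169%) stood apart in SI_6. Each value is the gap as a part of the range.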

How the results depend on the processing

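The 7 called members kept their direction and their call under all 14 alternatives that refitted the test, and Il18 stayed uncalled under each. Adjusted p for Il33, which rests on 8 to 27 intestinal reads, reached 0.0492 with 1 library left out, and its difference ran from 2.17 to 3.01. With median-centred libraries the median difference of all genes moved from 0.37 to -0.53. The calls then split into 4285 higher and 10216 lower (29.5% higher, against 63.2%), and 2 members were lower, because Il1rap reached -1.16. Under quantile normalization 45.8% of calls were higher. The filter that kept genes averaging at least 10 reads gave 53.8% higher. Il1r1 turned to -0.72 with median-centred libraries and -0.41 with quantile normalization.

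Other named genes that changed sign with median-centred libraries were Gsdmd (-0.11), Myd88 (-0.18), Peli1 (-0.16), Tab2 (-0.18) and Chuk (-0.10), all called otherwise, and, uncalled, Casp4 (-0.78), Casp8 (-0.86), Aim2 (-0.51), Mefv (-0.87), Irak3 (-0.48), Irak4 (-0.33), Traf6 (-0.73), Tollip (-0.66), Map3k7 (-0.80), Il1f8 (-0.83), Tbpl2 (-0.44), Actr5 (-0.72), Zfp53 (-0.67), Zfp946 (-0.0066) and Gm20319 (-0.69). Quantile normalization turned Casp8 (-0.32), Mefv (-0.011), Map3k7 (-0.023), Il1f8 (-0.22), Zfp946 (-0.010) and Gm20319 (-0.76). With 1 library left out, uncalled genes that changed sign ran from -0.60 to 0.15 for Casp1, from -0.031 to 0.099 for Casp8, from -0.11 to 0.13 for Mefv, from -0.21 to 0.28 for Il1f8 and from -0.77 to 0.022 for Il1f6. Of 79 other named genes that were called, 62 kept sign and call under all 14 alternatives. The cause was not tested.

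With exon unions as gene length, Il1rn over agonists was 0.706 in bone marrow and 0.129 in the small intestine, Il1a over Il1b in the small intestine 0.670, Il1r2 over Il1r1 15.5 and 1101, and Il1rl1 over Il1rap 0.0877 and 1.38. These ratios were also recomputed without each library, an alternative added once the data had been seen, and moved by less than 1 SD. No paired analysis was possible because libraries of the 2 tissues share no replicate number.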
